A study of Mus musculus with 9 samples.

Results

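The 10 genes described here are *Wnt3*, *Wnt3a*, *Wnt4*, *Wnt5a*, *Wnt5b*, *Wnt6*, *Wnt7a*, *Wnt7b*, *Wnt8a* and *Wnt11*. They were taken by name from a table of 29069 genes, which holds 19 Wnt genes in all. All 10 passed the filter on low values, which asked for more than 5 normalised counts on average and left 18156 genes to be tested. RNA was measured in D3 cells, an established line of mouse embryonic stem cells (mESC), at passages p5 to p8 and without a feeder layer, after 24 h in GS, DM or NO, with 3 samples per medium. GS, the ground state medium, was serum-free N2B27 with 1 μM of the MEK inhibitor PD0325901, 3 μM of the GSK-3 inhibitor CHIR99021 and 20 ng/mL of the cytokine LIF. DM, the medium for spontaneous differentiation, was DMEM with 10% fetal bovine serum and without the inhibitors or LIF. NO was the same serum medium with 250 μM of the nitric oxide donor DETA/NO. NO and DM thus differ by the donor alone, whereas each of them differs from GS also by serum, base medium, inhibitors and LIF. All samples come from 1 unmodified line, and the labels do not say that the 3 samples of a medium were separate cultures, so the p-values measure the spread between these samples.

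Wnt proteins are secreted, lipid-modified ligands that bind Frizzled receptors on neighbouring cells. In the canonical branch the signal stops GSK-3 from marking beta-catenin for destruction, and beta-catenin then acts with TCF/LEF factors on target genes such as *Axin2*. In other branches, for which Wnt5a and Wnt11 are best known, the signal directs cell movement and polarity without beta-catenin. In the early embryo Wnt3 is required for the primitive streak, from which mesoderm and endoderm arise. The inhibitor CHIR99021 in GS acts on GSK-3 inside the cell, downstream of the ligands.

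Sequences around the transcription start are shown for 4 ligand genes that were called higher in NO than in DM, and for *Wnt5b*, which was called lower in DM and NO than in GS. Of the 4, only *Wnt6* was also called higher in DM than in GS. They are the 300 bases from 250 before to 50 after a RefSeq start in GRCm38.p6, 5′ to 3′ on the strand of the gene. Capitals mark matches, on either strand, to CACCTG (reverse complement CAGGTG), the E-box core bound by Zeb1, or to CTTTGA (reverse complement TCAAAG), a core of TCF/LEF sites. The motifs do not overlap in these windows. *Wnt3* is shown at chr11:103773925-103774224 (+), *Wnt3a* at chr11:59290702-59291001 (-), *Wnt4* at chr4:137277385-137277684 (+), *Wnt6* at chr1:74771642-74771941 (+) and the most upstream start of *Wnt5b* at chr6:119544298-119544597 (-).
Wnt3: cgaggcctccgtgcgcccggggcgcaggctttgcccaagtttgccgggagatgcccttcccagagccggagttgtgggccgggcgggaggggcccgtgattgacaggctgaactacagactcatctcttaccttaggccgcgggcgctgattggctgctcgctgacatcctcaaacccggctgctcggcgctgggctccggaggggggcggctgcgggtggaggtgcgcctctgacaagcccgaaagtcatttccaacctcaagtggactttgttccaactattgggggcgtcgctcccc
Wnt3a: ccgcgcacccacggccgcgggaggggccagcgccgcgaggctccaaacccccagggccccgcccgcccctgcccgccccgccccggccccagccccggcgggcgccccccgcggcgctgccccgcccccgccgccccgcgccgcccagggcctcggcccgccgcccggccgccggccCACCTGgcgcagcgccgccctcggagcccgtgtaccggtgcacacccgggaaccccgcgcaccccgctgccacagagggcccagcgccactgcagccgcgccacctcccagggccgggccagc
Wnt4: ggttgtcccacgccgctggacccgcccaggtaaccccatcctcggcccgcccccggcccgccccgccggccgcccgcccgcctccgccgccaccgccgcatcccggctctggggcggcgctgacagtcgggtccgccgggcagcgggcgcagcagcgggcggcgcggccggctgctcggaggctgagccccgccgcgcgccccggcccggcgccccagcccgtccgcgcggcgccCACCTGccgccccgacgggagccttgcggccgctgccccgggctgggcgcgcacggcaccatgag
Wnt6: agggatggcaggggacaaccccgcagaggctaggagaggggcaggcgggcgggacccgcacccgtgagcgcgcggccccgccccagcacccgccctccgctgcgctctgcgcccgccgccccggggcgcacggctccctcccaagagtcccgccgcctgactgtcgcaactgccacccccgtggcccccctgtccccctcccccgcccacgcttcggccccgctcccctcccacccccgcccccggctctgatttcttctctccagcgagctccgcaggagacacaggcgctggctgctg
Wnt5b: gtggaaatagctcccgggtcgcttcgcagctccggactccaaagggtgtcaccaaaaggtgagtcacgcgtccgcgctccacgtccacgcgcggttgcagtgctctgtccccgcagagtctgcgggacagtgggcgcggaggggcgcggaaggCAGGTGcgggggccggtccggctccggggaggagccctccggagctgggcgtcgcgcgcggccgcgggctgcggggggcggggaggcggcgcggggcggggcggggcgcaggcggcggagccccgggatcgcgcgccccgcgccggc

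CACCTG was found 1 time each in the windows of *Wnt3a*, *Wnt4* and *Wnt5b* and not in those of *Wnt3* and *Wnt6*. CTTTGA was found in none of the 5 windows shown. Of all 32851 RefSeq promoter windows, 20.2% held CACCTG and 16.0% held CTTTGA. A match is a description of the letters and not a bound site, and a window without a match does not show that Zeb1 is absent. By chromatin immunoprecipitation, the study reported Zeb1 enriched at the promoters of *Wnt3* and *Wnt7b* in GS. The windows were rich in CpG, with 24 CpG in *Wnt3*, 45 in *Wnt3a*, 51 in *Wnt4*, 31 in *Wnt6* and 47 in *Wnt5b*, where the median of all windows was 7 and the 90th percentile 31. Other windows differed. The starts of *Wnt5b* further downstream, at chr6:119467162-119467461 (-) and chr6:119449337-119449636 (-), held 4 and 7 CpG, and the latter held 1 CACCTG and 1 CTTTGA. *Wnt8b*, another ligand gene that was called higher in NO than in DM, held 6 CpG and neither motif. No windows of *Wnt5a*, *Wnt7b* and *Wnt8a* were read here.

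The values are normalised counts, which the authors scaled by library with DESeq2 and rounded. The estimated depth was between 14307523 and 27061091 assigned reads per sample, at which 1 read was worth between 0.701 and 1.323 normalised counts. Replicate 2 of NO stood apart from the others. On the first principal component of all tested genes, which held 50.3% of the variance, GS lay between -49.1 and -41.5, DM between -33.1 and -26.0, and the NO replicates 1, 2 and 3 at 25.9, 131.2 and 67.1. NO replicate 2 held the highest value among the NO samples for 9 of the 10 ligands, compared with 42.6% of all tested genes and 95.8% of the genes called higher in NO than in DM. The tests of NO on the 10 ligands are therefore also given without it, and so is each other call on NO that was lost without it. NO replicate 2 had 14538542 estimated reads, close to NO replicate 3 and below the 26091933 of NO replicate 1.

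The Wnt ligands changed mainly with the nitric oxide donor. A gene was called where the Benjamini-Hochberg adjusted p of limma over all tested genes was under 0.05 and the log2 fold change, on the scale of log2(normalised count + 1), was at least 1 in size. In NO compared with DM, 6 of the 10 ligands were called higher (*Wnt3*, *Wnt3a*, *Wnt4*, *Wnt6*, *Wnt7b* and *Wnt8a*) and 0 lower, where 6.78% of all tested genes were called higher and 1.77% lower. *Wnt3* and *Wnt7b* passed the filter on low values only through NO, so the count is not independent of the filter. Their means were 6.7 and 2.3 in GS and 1.7 and 6.3 in DM. With no minimum mean both calls to DM were kept (adjusted p = 0.00437 and 0.00872). In NO compared with GS, 7 were called higher, the same 6 and *Wnt5a*, and *Wnt5b* was called lower, against a background of 10.1% higher and 1.64% lower. In DM compared with GS, *Wnt5a* and *Wnt6* were called higher and *Wnt5b* lower, against 2.94% and 1.27%. The median log2 fold change of the 10 ligands was 1.67 in NO compared with DM, 2.34 in NO compared with GS and -0.31 in DM compared with GS, while the medians of all tested genes were 0.001, -0.0164 and -0.0007. Over all genes, 1231 were called higher and 321 lower in NO than in DM and 1830 higher and 297 lower in NO than in GS, a split that moved to 959 and 514 and to 1304 and 629 after quantile normalization. That scaling ended the calls of *Wnt6* to DM and of *Wnt3a* and *Wnt4* to GS and turned no called ligand. The 3 comparisons share samples and are not independent of each other. When NO replicate 2 was left out, 5 ligands were called higher in NO than in DM (all of the 6 except *Wnt6*), and 5 higher and 1 lower in NO than in GS.

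**Figure D1:**
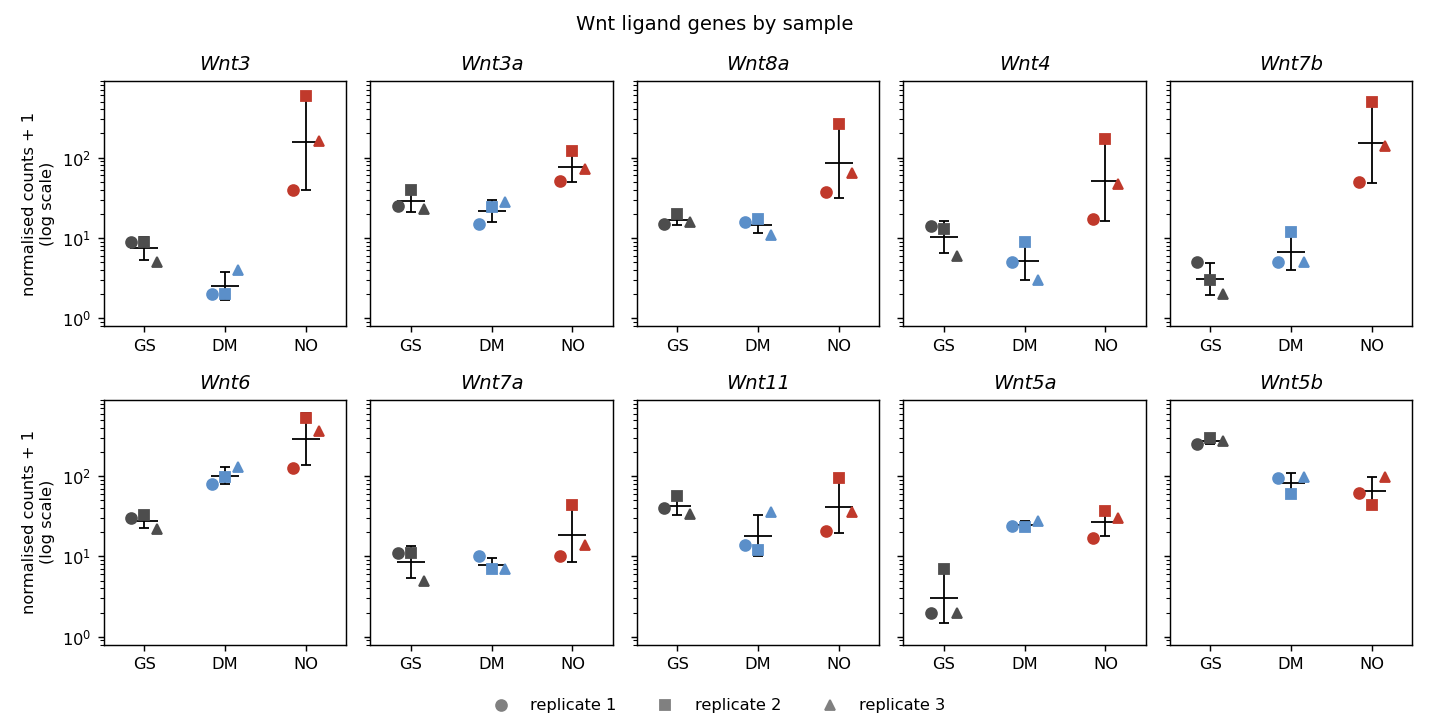
Normalised counts + 1 of the 10 Wnt ligand genes in each of the 9 samples, on a log axis. Symbols mark replicates 1 to 3, horizontal bars the mean of the log2 values of a medium and whiskers 1 SD of them. *Wnt3*, *Wnt3a*, *Wnt8a*, *Wnt4* and *Wnt7b* lie higher in all 3 NO samples than in any DM sample, and *Wnt5b* lies higher in GS than in DM or NO.

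**Figure D2:**
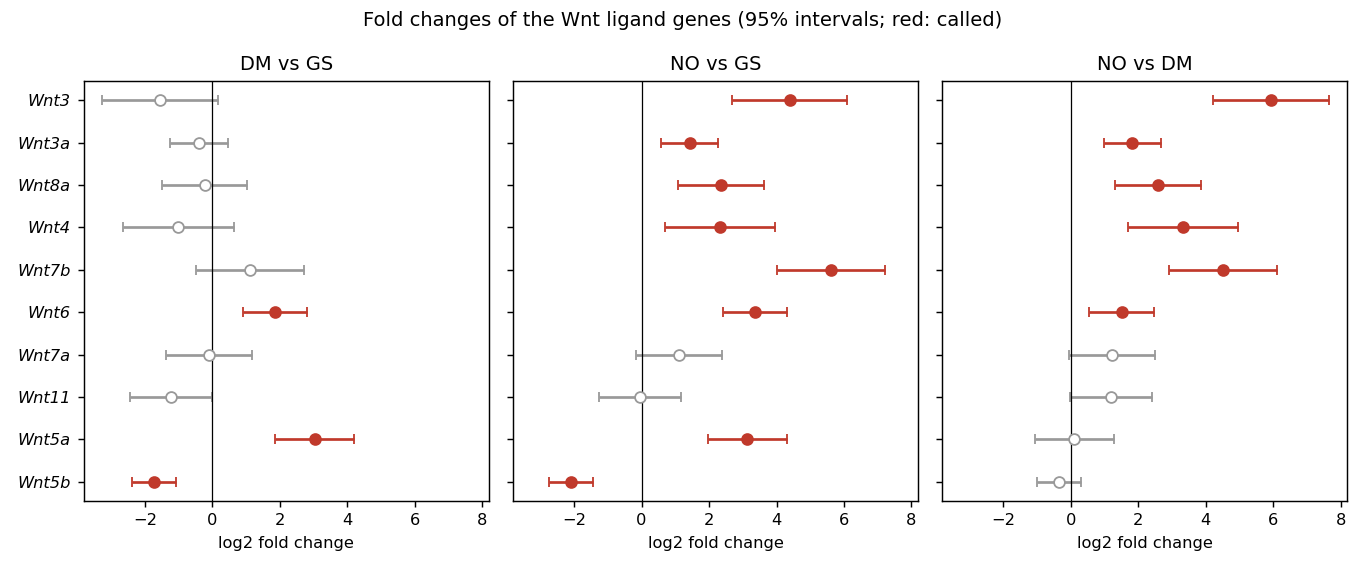
Log2 fold change of each ligand gene in the 3 comparisons, with 95% intervals from the limma fit. Filled red points passed both thresholds, and grey open points did not. The estimates range from -0.35 for *Wnt5b* to 5.94 for *Wnt3* in NO compared with DM.

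*Wnt3*, *Wnt3a* and *Wnt8a* are ligands of the canonical branch that act in the streak and the posterior body of the embryo. For *Wnt3* the replicates 1, 2 and 3 read 8, 8 and 4 in GS, 1, 1 and 3 in DM, and 38, 581 and 162 in NO, all in normalised counts. It was close to absent in DM and higher in every NO sample, although the NO samples themselves spanned more than an order of magnitude. The log2 fold change was 5.94 (SE 0.78) in NO compared with DM, with an adjusted p of 0.00212, and 4.39 (SE 0.78) in NO compared with GS, with an adjusted p of 0.00328. In DM compared with GS it was -1.55 (SE 0.78, adjusted p = 0.301), so no change was called although the samples of both media did not overlap. This SE is pooled over all 3 media and so includes the wide spread of NO. With only the 6 samples of DM and GS in the fit, the SE was 0.55 and the adjusted p 0.117. As the estimated reads of *Wnt3* over the 3 DM samples were only 5, the ratio of NO to DM, 150, had a 95% counting interval from 64.1 to 465, which covers counting error only. The ratio of DM to GS by the same reads was 0.199, with a counting interval from 0.0583 to 0.545. With NO replicate 2 left out, the change to DM was 4.98, with an adjusted p of 0.00167, and that to GS was 3.43, with an adjusted p of 0.00563.

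*Wnt3a*, which maintains the progenitors of the trunk and tail, read 24, 39 and 22 in GS, 14, 23 and 27 in DM, and 50, 119 and 72 in NO. GS and DM overlapped, and all NO samples lay above both. Compared on the log2 scale, the difference was 1.82 (SE 0.39, adjusted p = 0.0130) in NO compared with DM and 1.43 (SE 0.39, adjusted p = 0.0250) in NO compared with GS. In DM compared with GS it was -0.40 (adjusted p = 0.632). Without NO replicate 2 the change to DM was 1.50 (adjusted p = 0.0396) and the change to GS, 1.10, missed the threshold (adjusted p = 0.0855). The call to GS was also lost without GS replicate 1 or 3 and without NO replicate 3, and the call to DM without DM replicate 1 (highest adjusted p 0.0934 and 0.0517).

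*Wnt8a*, a ligand of the late streak, read 14, 19 and 15 in GS, 15, 16 and 10 in DM, and 36, 263 and 64 in NO. GS and DM overlapped (log2 fold change -0.23, 95% interval -1.50 to 1.04), and NO lay above both in every sample. Compared on the log2 scale, the difference was 2.58 (SE 0.58, adjusted p = 0.0159) in NO compared with DM and 2.35 (SE 0.58, adjusted p = 0.0156) in NO compared with GS. Leaving out NO replicate 2 gave 1.77 (adjusted p = 0.0208) and 1.54 (adjusted p = 0.0235). The call to DM was lost without DM replicate 3 and that to GS without GS replicate 1 or 3, with adjusted p up to 0.0523 and 0.0570.

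*Wnt4*, *Wnt7a*, *Wnt7b* and *Wnt6* are ligands best known from organ formation. *Wnt7b*, which acts in the lung, kidney and placenta, read 4, 2 and 1 in GS, 4, 11 and 4 in DM, and 49, 491 and 140 in NO. It was at a few reads in GS and DM and was detected well in every NO sample. The log2 fold change was 4.50 (SE 0.73, adjusted p = 0.00437) in NO compared with DM and 5.61 (SE 0.73, adjusted p = 0.00084) in NO compared with GS, the largest change to GS among the 10 ligands. By estimated reads the ratio of NO to DM was 26.7, with a 95% counting interval from 17.9 to 41.6. Leaving out NO replicate 2 gave log2 fold changes of 3.65 (adjusted p = 0.0067) and 4.76 (adjusted p = 0.000875).

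*Wnt4*, required in kidney and gonad, read 13, 12 and 5 in GS, 4, 8 and 2 in DM, and 16, 170 and 46 in NO. All NO samples lay above all others, but NO replicate 1 exceeded the highest GS sample by only 3 normalised counts. Compared on the log2 scale, the difference was 3.33 (SE 0.75, adjusted p = 0.0158) in NO compared with DM and 2.32 (SE 0.75, adjusted p = 0.0480) in NO compared with GS. Without NO replicate 2 the change to DM was 2.46 (adjusted p = 0.0410), and the change to GS was 1.46 and missed the threshold (adjusted p = 0.163). The call to GS was kept in 5 of 17 alternative settings, and the call to DM in all of 17 except without DM replicate 3 (adjusted p = 0.0536).

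*Wnt6*, an epithelial ligand, was the only ligand called higher in each of the 3 comparisons. It read 29, 32 and 21 in GS, 79, 97 and 130 in DM, and 124, 524 and 361 in NO. GS lay below both other media, and NO replicate 1 lay just below the highest DM sample. The log2 fold change was 1.85 (SE 0.44, adjusted p = 0.0270) in DM compared with GS, 3.36 (SE 0.44, adjusted p = 0.00084) in NO compared with GS and 1.51 (SE 0.44, adjusted p = 0.0412) in NO compared with DM. Of 18 alternative settings the call of NO to GS was kept in 18, that of DM to GS in 11 and that of NO to DM in 6. Without NO replicate 2, NO compared with DM gave 1.08 (adjusted p = 0.140), and leaving out any sample other than NO replicate 1 also ended this call. The call of DM to GS was lost without any of the 6 samples of these media.

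*Wnt7a*, a ligand of limb and reproductive tract, was low in all media, with 10, 10 and 4 in GS, 9, 6 and 6 in DM, and 9, 43 and 13 in NO. Only NO replicate 2 stood out, and the media overlapped. No change was called, with log2 fold changes of 1.22 (95% interval -0.05 to 2.49, adjusted p = 0.177) in NO compared with DM and 1.12 (95% interval -0.16 to 2.39, adjusted p = 0.196) in NO compared with GS. They were 0.59 (adjusted p = 0.564) and 0.48 (adjusted p = 0.594) without NO replicate 2.

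*Wnt5a*, *Wnt5b* and *Wnt11* are the ligands tied to cell movement and polarity. *Wnt5a* and *Wnt5b* did not follow the pattern of *Wnt3*, and for *Wnt11* no change was called. *Wnt5a* read 1, 6 and 1 in GS, 23, 22 and 27 in DM, and 16, 36 and 29 in NO. It was almost absent from GS, and DM and NO overlapped. Compared on the log2 scale, the difference was 3.04 (SE 0.54, adjusted p = 0.00547) in DM compared with GS and 3.13 (SE 0.54, adjusted p = 0.00263) in NO compared with GS. In NO compared with DM it was 0.10, with a 95% interval from -1.07 to 1.27 and an adjusted p of 0.924. Without NO replicate 2 the change in NO compared with GS was 2.89, with an adjusted p of 0.00812, and NO compared with DM gave -0.14.

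*Wnt5b* went the opposite way to *Wnt5a*. It read 249, 294 and 274 in GS, 93, 59 and 98 in DM, and 61, 43 and 97 in NO, and GS lay above the other media without overlap. The log2 fold change was -1.73 (SE 0.30, adjusted p = 0.00483) in DM compared with GS and -2.08 (SE 0.30, adjusted p = 0.00115) in NO compared with GS, and these calls were kept in all 18 alternative settings. In NO compared with DM it was -0.35 (95% interval -1.01 to 0.30, adjusted p = 0.450). In the fit without NO replicate 2, the change in NO compared with GS was -1.81, with an adjusted p of 0.00153. *Wnt5b* was the exception among the ligands in that NO replicate 2 held its lowest value.

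*Wnt11*, which guides cell movements at gastrulation, read 39, 56 and 33 in GS, 13, 11 and 35 in DM, and 20, 93 and 35 in NO. The media overlapped, and no change was called. Log2 fold changes were -1.23 (SE 0.55, adjusted p = 0.244) in DM compared with GS, -0.04 (adjusted p = 0.967) in NO compared with GS and 1.18 (SE 0.55, adjusted p = 0.168) in NO compared with DM. Only without NO replicate 1 was it called higher in NO than in DM (adjusted p = 0.0418). The fit without NO replicate 2 gave 0.59 (adjusted p = 0.527) to DM and -0.63 (adjusted p = 0.439) to GS.

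To compare the genes with each other, the normalised counts were divided by the exon length of the gene. On this scale of normalised counts per kb, *Wnt5b* led in GS with a mean of 103, apart from the next gene, *Wnt6*, with 12.5. *Wnt6*, *Wnt11* (10.3), *Wnt3a* (10.3) and *Wnt8a* (9.16) followed with overlapping ranges, and *Wnt7b* (0.476) and *Wnt5a* (0.341) were the lowest. In DM, *Wnt6* (46.5) and *Wnt5b* (31.4) overlapped each other and lay apart from *Wnt8a* (7.83), and *Wnt3* was the lowest with 0.542. In NO the order of the means was *Wnt6* (153), *Wnt3* (84.6), *Wnt8a* (69.3), *Wnt7b* (46.3), *Wnt3a* (29.1), *Wnt5b* (25.2), *Wnt4* (18.4), *Wnt11* (11.9), *Wnt7a* (6.83) and *Wnt5a* (3.45). Neighbours in this order overlapped throughout. Over NO replicates 1 and 3 alone, *Wnt6* (111) lay apart from *Wnt3* (32.5), and *Wnt5b* (29.8) moved up to the third place, before *Wnt8a* (28.6), *Wnt3a* (22.1) and *Wnt7b* (19.3). *Wnt5a*, although called 3.13 log2 units higher than in GS, was the lowest of the 10 ligands in NO per kb, also without NO replicate 2.

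The make-up of the pool of these 10 ligands differed between the media. *Wnt5b* held 65.6, 63.8 and 73.0% of the summed level per kb of the 10 genes in the GS replicates 1, 2 and 3. It held 36.6, 23.2 and 28.9% in DM and 14.9, 1.98 and 9.81% in NO. These shares did not overlap between any of the media. The summed level itself was 143, 174 and 141 normalised counts per kb in GS, 95.8, 95.8 and 128 in DM, and 154, 819 and 372 in NO. NO replicate 1 thus lay within the range of GS in the sum of the 10 genes and differed from GS in its make-up. Over all 19 Wnt genes its sum was 212, above the 161, 186 and 150 of the GS replicates. The 10 genes held 72.7% of that wider sum in NO replicate 1 and 89.1, 93.4 and 94.0% in GS. In these bulk samples more cells that express a gene and more RNA per cell cannot be told apart.

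**Figure D3:**
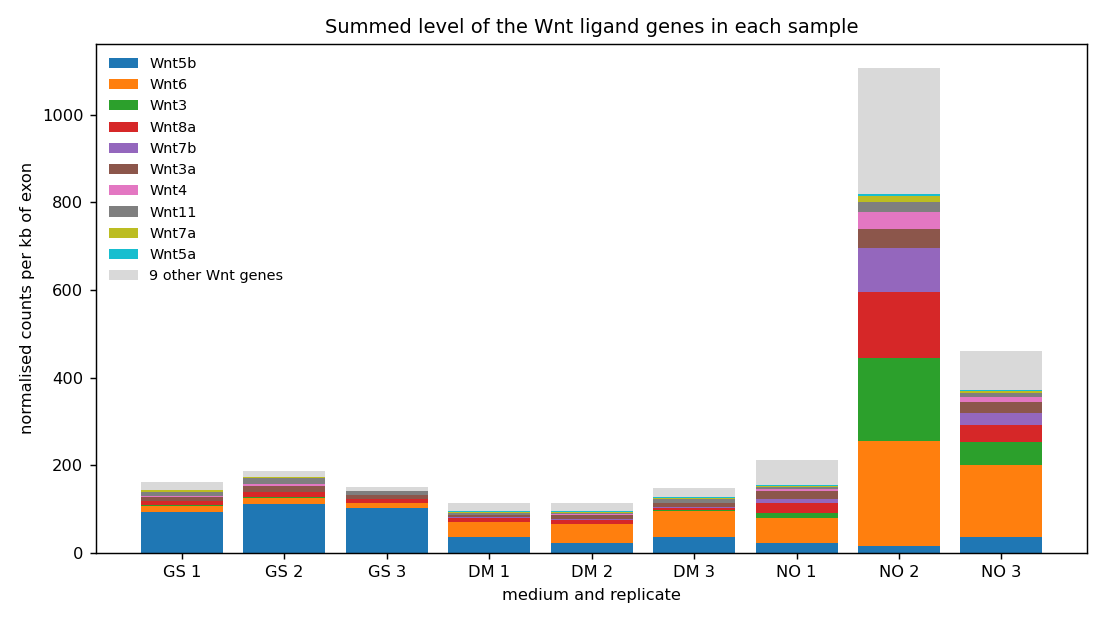
Summed level of the 19 Wnt ligand genes in each sample, in normalised counts per kb of exon, with 1 colour for each of the 10 genes and grey for the 9 others. *Wnt5b* fills most of the bars of GS, whereas the bars of NO replicates 2 and 3 are taller and consist mainly of *Wnt6*, *Wnt3*, *Wnt8a*, *Wnt7b* and other Wnt genes.

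The ligand genes varied more among the NO samples than most genes. The ratio of the highest to the lowest NO value, each with 1 added, had a median of 4.44 over the 10 ligands, 1.50 over all tested genes and 3.18 over the genes called higher in NO than in DM. NO replicate 2 lay more than 2-fold above both other NO samples for 60% of the ligands, 7.7% of all tested genes and 49.7% of the genes called higher in NO than in DM. The summed ligand level and the first principal component put the NO samples in the same order, replicate 1, 3 and 2. Over the 9 samples, Pearson's r of log2 values was 0.96 between *Wnt3* and *Wnt3a*, 0.94 between *Wnt3* and *Wnt8a*, 0.95 between *Wnt4* and *Wnt8a* and 0.93 between *Wnt7b* and *Wnt8a*. It was -0.85 between *Wnt5a* and *Wnt5b*, 0.19 between *Wnt6* and *Wnt11* and 0.66 between *Wnt3* and *Wnt11*. These are descriptions over samples that share their media.

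Of all tested genes with a common name, those whose profile over the 9 samples was most like that of a ligand were found by the same r. For *Wnt3* they were *Gaa* (0.989), *Perp* (0.988) and *Plk2* (0.988), and for *Wnt8a* they were *Atp2b4* (0.996), *Inpp5d* (0.993) and *Mdm2* (0.992). For *Wnt7b* they were *Fam214a* (0.992), *Cited4* (0.992) and *Fat2* (0.990), and for *Wnt3a* *Trim7* (0.981), *Lif* (0.977) and *Tfcp2* (0.975). *Perp* read 274, 333 and 269 in GS, 197, 210 and 241 in DM, and 901, 4411 and 2165 in NO, with the same order of the NO samples as *Wnt3*. The genes most like *Wnt4* were *Inadl* (0.993), *Bin2* (0.988) and *Scarna8* (0.988), those most like *Wnt6* were *Hdac6* (0.991), *Izumo4* (0.989) and *Pcx* (0.987), and those most like *Wnt7a* were *Crtc3* (0.992), *Mapkapk2* (0.984) and *Sec22c* (0.982). *Wnt5a* was nearest to *Vash1* (0.980), *Oacyl* (0.972) and *Spg7* (0.972), *Wnt5b* to *Rab38* (0.972), *Mapk8* (0.960) and *Pla2g4e* (0.958), and *Wnt11* to *Slc38a7* (0.964), *Isg20* (0.962) and *Comp* (0.958). With 9 samples in 3 media, many genes reach such values.

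Some of the ligand genes lie beside another Wnt gene. Coordinates are those of GENCODE M21 on GRCm38. *Wnt3* (chr11:103774150-103817957, +) has *Wnt9b* as its neighbour on the opposite strand, 24.3 kb away. *Wnt9b* was listed at 0, 1 and 0 in GS, 0, 1 and 0 in DM, and 4, 20 and 4 in NO, and was too low to be tested. *Wnt3a* (chr11:59248033-59290752, -) lies 16.2 kb from *Wnt9a*, also on the opposite strand. *Wnt9a* read 24, 9 and 5 in GS, 15, 22 and 18 in DM, and 66, 599 and 148 in NO. Its log2 fold change to DM was 3.25 (SE 0.70, adjusted p = 0.0135). *Wnt6* (chr1:74771892-74785322, +) is followed 6.2 kb on by *Wnt10a* on the same strand. *Wnt10a* read 3, 4 and 1 in GS, 15, 7 and 10 in DM, and 47, 107 and 43 in NO, with 2.45 (SE 0.51, adjusted p = 0.0115) in NO compared with DM. Without NO replicate 2 these were 2.39 (adjusted p = 0.0268) for *Wnt9a* and 2.04 (adjusted p = 0.0405) for *Wnt10a*. Each neighbour was thus higher in all 3 NO samples than in any DM sample, as *Wnt3* and *Wnt3a* were, while *Wnt6* overlapped. The same separation held for *Wnt4*, *Wnt7b* and *Wnt8b*, which have no Wnt gene next to them. The share of all tested genes with such a separation was not counted.

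The other ligand genes have no Wnt gene next to them. *Wnt4* lies at chr4:137277489-137299726 (+), *Wnt5a* at chr14:28504750-28527448 (+), *Wnt5b* at chr6:119432531-119544347 (-), *Wnt7a* at chr6:91363981-91411363 (-), *Wnt7b* at chr15:85535437-85582473 (-) and *Wnt11* at chr7:98835112-98855195 (+). Exons of *Wnt5a*, *Wnt7b* and *Wnt11* overlap a gene on the opposite strand over 4.6, 6.6 and 8.8% of their length. As the use of strand in counting was not given, reads there cannot be assigned with certainty. None of the 10 genes shared a stretch of 30 bases with another Wnt gene, and 5.94% of such stretches of *Wnt4* occurred in other genes.

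Of the 9 other Wnt genes in the table, 6 were tested. In NO compared with DM, *Wnt8b*, *Wnt9a* and *Wnt10a* were called higher and 0 lower, and in NO compared with GS these and *Wnt10b* were called higher. *Wnt8b*, best known from the forebrain, read 5, 2 and 11 in GS, 3, 1 and 3 in DM, and 30, 160 and 52 in NO, which was 4.34 log2 units above DM (SE 0.68, adjusted p = 0.00378), and 3.67 (adjusted p = 0.00727) without NO replicate 2. The call of *Wnt10b* to GS was lost without NO replicate 2 (2.73, adjusted p = 0.0559). *Wnt2b* and *Wnt16* were called in no comparison, and *Wnt1* and *Wnt2* never exceeded 1 normalised count. Among all 16 tested Wnt genes, 9 were called higher in NO than in DM and 0 lower. As shares these were 56.2 and 0%, beside 6.78 and 1.77% of all tested genes, and the call of *Wnt6* was lost without NO replicate 2. Like *Wnt3* and *Wnt7b*, *Wnt8b* and *Wnt10b* passed the filter on low values only through NO. Their means were 6.0 and 1.3 in GS and 2.3 and 5.7 in DM.

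The rest of the pathway was followed in 80 genes, of which 69 were tested. In NO compared with DM 6 were called higher and 4 lower, and in NO compared with GS 3 higher and 7 lower. In DM compared with GS 2 were higher and 9 lower. As shares of the 69 genes, those called higher were 8.7, 4.3 and 2.9% in these comparisons, beside 6.78, 10.1 and 2.94% of all tested genes, and those called lower were 5.8, 10.1 and 13.0%, beside 1.77, 1.64 and 1.27%. The shares called higher in NO compared with DM and in DM compared with GS were thus near the background. Counted with the 6 other tested Wnt genes, 13 pathway genes were called in NO compared with DM, but 7 without NO replicate 2 and 21 without NO replicate 1.

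Secretion of Wnt proteins needs Porcn, which attaches their lipid, and Wls, which carries them to the cell surface. *Wls* read 379, 268 and 446 in GS, 205, 170 and 217 in DM, and 397, 1177 and 561 in NO. It was higher in every NO sample than in any DM sample, with a log2 fold change of 1.70 (SE 0.33, adjusted p = 0.00926) that was kept in all 18 alternative settings. *Porcn* read 187, 186 and 344 in DM and 97, 121 and 119 in NO, a change of -1.03 (SE 0.28, adjusted p = 0.0320) that was lost in 9 of 18 settings, among them the fit without NO replicate 2 (-1.08, adjusted p = 0.0551). The samples of NO and DM did not overlap for either gene.

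Among 16 tested receptors and co-receptors, 0 were called in NO compared with DM. *Fzd7* was lower in every NO sample than in any DM sample (-0.88, SE 0.19, adjusted p = 0.0123), a change under the minimum size. In DM compared with GS it was higher by 0.95 (adjusted p = 0.00996), also under that size. The Frizzled receptor *Fzd10* fell in DM compared with GS by 1.38 on the log2 scale (SE 0.20, adjusted p = 0.0016), and *Ror1*, a receptor for Wnt5a, was called higher in NO than in GS (2.16, SE 0.59, adjusted p = 0.0251). The latter call was lost without NO replicate 2 (1.84, adjusted p = 0.0835). In the R-spondin group, of which 5 of 9 genes were tested, *Rspo1*, which strengthens Wnt signals, was higher than in GS in DM (1.57, SE 0.33, adjusted p = 0.0140) and in NO (1.31, SE 0.33, adjusted p = 0.0163). Both calls were lost without GS replicate 3, that of DM also without DM replicate 1, and that of NO also after quantile normalization (adjusted p up to 0.0658 and 0.113). *Rnf43*, a ubiquitin ligase that removes Frizzled receptors from the cell surface and is itself a target of the pathway, read 80, 89 and 65 in GS, 11, 14 and 26 in DM, and 60, 142 and 67 in NO. It was lower in DM than in GS (-2.21, SE 0.39, adjusted p = 0.00531) and higher in NO than in DM (2.31, SE 0.39, adjusted p = 0.00498), and NO and GS overlapped. Both calls were kept in all 18 settings.

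Of 11 tested extracellular inhibitors, 3 were called in NO compared with DM. *Wif1*, which binds Wnt proteins, read 18, 19 and 24 in GS, 2, 0 and 1 in DM, and 4, 20 and 9 in NO. It was lower in DM than in GS (-3.54, SE 0.61, adjusted p = 0.00483) and higher in NO than in DM (2.48, SE 0.61, adjusted p = 0.0225), the latter not without NO replicate 2 (1.96, adjusted p = 0.0796). *Sfrp4*, another secreted binder of Wnt, rose in DM compared with GS (1.39, SE 0.27, adjusted p = 0.0099) and was lower in NO than in DM (-1.30, SE 0.27, adjusted p = 0.0119). *Notum*, which removes the lipid from Wnt proteins, was lower in NO than in DM (-1.11, SE 0.24, adjusted p = 0.0132). The NO calls of *Sfrp4* and *Notum* were lost without NO replicate 2, where the changes of -0.91 and -0.82 were under the minimum size. *Dkk1* was called lower in DM than in GS, at an adjusted p of 0.0491 that rose above the threshold in 12 of 17 settings, and *Sfrp1* was called lower in NO than in GS (-1.14, SE 0.31, adjusted p = 0.0243), a call lost in 6 of 18 settings, among them the fit without NO replicate 2 (-0.68).

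Inside the cell, beta-catenin RNA (*Ctnnb1*) was between 17272 and 23151 in all samples and was not called. Of 12 tested transducers *Apc2*, of the complex that destroys beta-catenin, was called higher in NO than in GS (1.52, SE 0.30, adjusted p = 0.00567), and by 1.13 without NO replicate 2 (adjusted p = 0.00629). Of 12 tested TCF/LEF factors and co-factors *Lef1* was called lower in NO than in GS and in DM. It read 29, 24 and 16 in GS, 42, 46 and 52 in DM, and 7, 10 and 3 in NO, so that NO lay below both other media. The change to DM was -2.75 (SE 0.42, adjusted p = 0.00347), kept in all 17 settings, and the change to GS was -1.73 (SE 0.42, adjusted p = 0.0146), a call lost without GS replicate 1 or 2 (adjusted p up to 0.0608).

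Of the 11 feedback and target genes of beta-catenin, 5 were called lower in DM than in GS and the same 5 lower in NO than in GS (*Axin2*, *Sp5*, *Cdx1*, *Cdx2* and *T*). None was called higher than in GS, and the calls of *Cdx2* and *T* in NO were lost without GS replicate 2 (adjusted p = 0.0522 and 0.0608). *Axin2*, a feedback inhibitor and common readout of canonical signalling, read 1356, 1592 and 1307 in GS, 300, 384 and 412 in DM, and 261, 767 and 416 in NO. It was far lower in both serum media than in GS (DM -1.96, SE 0.30, adjusted p = 0.00261), and NO and DM overlapped (0.27, SE 0.30, adjusted p = 0.586). *Cdx1*, a homeobox gene of the posterior embryo, read 720, 660 and 517 in GS, 22, 20 and 16 in DM, and 51, 46 and 52 in NO. It was called higher in NO than in DM (1.33, SE 0.22, adjusted p = 0.00498) and lay far below GS in every NO sample. This call to DM was lost after quantile normalization. *Sp5* (2.44, SE 0.68, adjusted p = 0.0357) and *T* (2.70, SE 0.74, adjusted p = 0.0342), the gene for the streak factor Brachyury, were also called higher in NO than in DM. Those 2 calls were kept in 5 and 7 of 18 settings only and were lost without NO replicate 2 (1.56, adjusted p = 0.0877, and 2.36, adjusted p = 0.108). In NO, 7 of the 10 ligands were called higher than in GS, beside 10.1% of all tested genes. Without NO replicate 2 the calls of *Wnt3a* and *Wnt4* among them were lost. The 5 of 11 targets called lower than in GS stood beside 1.64% of all tested genes in NO and 1.27% in DM. As *Cdx2* passed the filter on low values only through GS (means of 1.3 in DM and 7.3 in NO), this count is not independent of the filter.

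**Figure D4:**
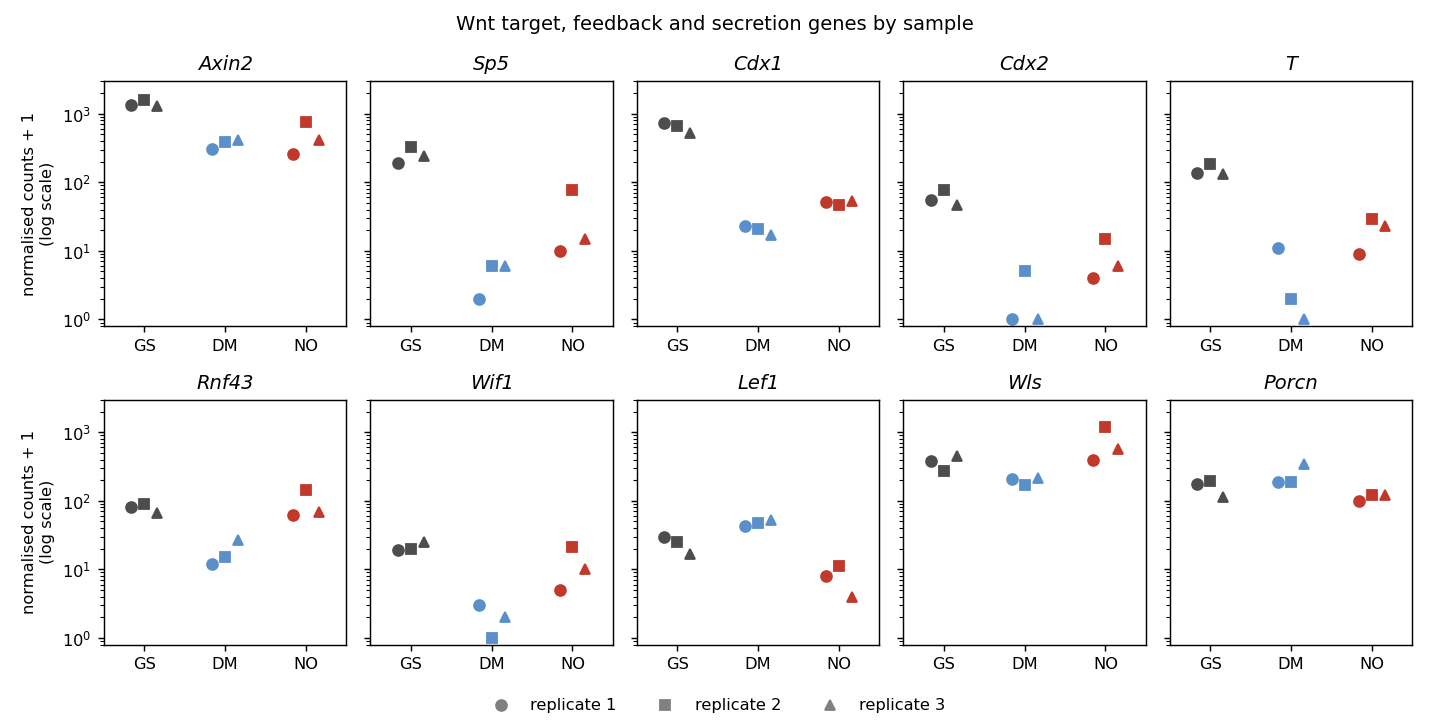
Normalised counts + 1 of 10 target, feedback and secretion genes of the pathway in each sample, on a log axis, with symbols for replicates 1 to 3. *Axin2*, *Sp5*, *Cdx1*, *Cdx2* and *T* are highest in all 3 GS samples, *Rnf43* and *Wls* are higher in NO than in DM, and *Lef1* is lowest in NO.

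Markers of cell types were read beside the ligands. The summed level of 6 pluripotency markers was between 69569 and 73584 in GS, 66332 and 75221 in DM, and 42939 and 69266 in NO. None of them was called, and NO replicate 2 had the lowest sum. *Pou5f1* read 8983, 4276 and 9978 in NO, below every GS and DM sample. Its change to DM was -0.95 (adjusted p = 0.0349), under the minimum size. *Nanog* changed by -0.80 in DM compared with GS (adjusted p = 0.0311), also under the minimum size. The markers of mESC were thus present in all media, but not all at an equal level. Of 6 primitive endoderm markers 5 were tested. Their sum was between 143 and 205 in GS, 111 and 192 in DM, and 227 and 708 in NO, with *Gata6* called higher in NO than in DM and in GS and *Sox7* between 1 and 12. Of 6 trophoblast markers, with sums of 1151 to 1191 in GS, 627 to 876 in DM and 999 to 2001 in NO, *Krt7*, *Hand1* and *Tfap2c* were called higher in NO than in DM, *Krt7* and *Hand1* also than in GS. *Cdx2* was called lower in DM and in NO than in GS, and *Tfap2c* lower in DM than in GS. The sum of 6 streak markers was 422 to 550 in GS, 140 to 184 in DM and 125 to 167 in NO, with *Foxa2* at no more than 5. *T*, *Eomes* and *Gsc* were called lower in DM and in NO than in GS, *T* higher in NO than in DM, and *Mesp1* higher in NO than in GS. Of 6 fibroblast markers the sum was 99 to 122 in GS, 231 to 249 in DM and 211 to 296 in NO, with *Dcn* and *Lum* at no more than 6 in any sample. *Col1a1* read 21, 13 and 20 in GS, 13, 18 and 20 in DM, and 39, 88 and 39 in NO, and was called higher in NO than in DM and in GS, while *Thy1* was called higher in DM and in NO than in GS. The 6 neuroectoderm markers summed to 1017 to 1423 in GS, 1108 to 1402 in DM and 837 to 1172 in NO, with *Neurog2* at 0 or 1. *Pax6* read 13, 8 and 13 in DM and 2, 3 and 1 in NO and was called lower in NO than in DM (-2.07, SE 0.54, adjusted p = 0.0280). *Pax6* passed the filter on low values only through DM, with means of 4 in GS and 2 in NO. *Mesp1* passed only through NO (0.3 in GS and 3.3 in DM) and *Cdx2* only through GS (1.3 in DM and 7.3 in NO). The calls of these genes are therefore not independent of the filter. Without NO replicate 2 the calls of *Hand1*, *Col1a1* and *T* in NO compared with DM and of *Gata6*, *Col1a1* and *Mesp1* in NO compared with GS were lost. *Gata6*, *Krt7* and *Hand1* were highest in NO replicate 2, followed by replicate 3, as was the ligand sum, and *Col1a1* was highest in NO replicate 2. The part of these markers in the ligand values was not tested.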

How the data were processed

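Total RNA of 9 samples was depleted of ribosomal RNA and sequenced by the authors on an Ion Torrent Proton. Reads were aligned to GRCm38 with STAR 2.4.0a and counted per gene with featureCounts 1.4.5-p1, per the labels and the methods of the study; 2 libraries were pooled per run, and which of them shared a run is not given in the sources used here. The deposited values are a score, namely DESeq2-normalised counts that the authors rounded to whole numbers, so no count model was fitted. Rounded values of a few reads are coarse, and fold changes on log2(value + 1) understate changes of low genes.

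Medium and replicate came from the labels. Genes with a mean above 5 entered linear models of limma (version 3.58.1, R 4.3.3), all 9 samples together, with moderation by a mean-variance trend and Benjamini-Hochberg adjustment over 18156 genes. Tests were two-sided. The fit was tried on simulated counts with equal spread in all media and with changes only in genes well above the filter. That trial does not cover low genes or the wide spread among the NO samples. Depth was estimated from the gaps among low values. The study's thresholds were used for calls. The named genes were the 10 ligands with every value, called genes of 8 pathway lists (at most 4 per list, comparison and direction), Wnt genes next to a ligand gene and the 3 genes with the most similar profile. *Ctnnb1*, *Fzd7* and the Wnt genes without a call were named after their values were seen. The members and lists were chosen with earlier results of these data known.

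Replicate numbers 1 to 3 recur in each medium. Deviations from the group means correlated at 0.159, 0.167 and 0.296 between same-numbered samples of NO and DM. Samples with different numbers were not compared in this way, so these values cannot tell whether the numbers pair samples. The labels do not give a pairing. Alternatives comprised pseudocounts of 0.5 and 5, no minimum mean or 50, no minimum fold change, the replicate block, no trend, scaling to equal totals, quantile normalization, only the 6 samples compared, and leaving out each sample. Promoters are from RefSeq (GRCm38.p6); 7 of the 10 ligand genes had entries that were read.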

Additional observations from a re-analysis of the deposited data

How the results depend on the processing

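Most values kept their direction and their side of the threshold, 474 of 525 over the alternatives for single ligands. The calls of *Wnt3* and *Wnt7b* in NO, of *Wnt5a* and *Wnt5b* to GS and of *Wnt6* in NO compared with GS were kept in every alternative. With no minimum fold change, 1215, 3640 and 2587 genes passed in DM compared with GS, NO compared with GS and NO compared with DM (763, 2127 and 1552 with it), and 17 and 21 pathway genes in DM compared with GS and NO compared with DM (11 and 13 with it). A minimum mean of 50, which tests fewer genes, gave 505, 1206 and 936 genes, 7 pathway genes in each of DM and NO compared with GS (11 and 14 before), and 5 ligands, all that were tested, in NO compared with GS. With only the 6 samples compared, 912 genes were called in NO compared with DM.

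Leaving out 1 sample gave 5 to 8 ligands in NO compared with GS (5 without GS replicate 1 or 3), 3 to 7 ligands in NO compared with DM (3 without DM replicate 3), 9 to 19 pathway genes in NO compared with GS (9 without GS replicate 2), 7 to 21 pathway genes and 806 to 2512 genes in NO compared with DM (the lowest without NO replicate 2, the highest without NO replicate 1). Signs turned only where no change was called. The log2 fold change of *Wnt11* in NO compared with GS was 0.065 after scaling to equal totals, which moved the median of all genes from -0.0164 to 0.0917, and -0.63 to 0.45 on leaving out a sample. That of *Wnt5a* in NO compared with DM was -0.23 after quantile normalization and -0.14 to 0.42 on leaving out a sample, and that of *Wnt7a* in DM compared with GS was -0.48 to 0.088 on leaving out a sample. The cause was not tested.

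With the replicate block, 3, 8 and 6 ligands were called in DM compared with GS, NO compared with GS and NO compared with DM, as without it, and no call of a ligand changed. It gave 10, 14 and 14 pathway genes and 674, 2085 and 1553 genes in all. For DM and GS the same-number correlations were -0.178, 0.022 and -0.232 and for NO and GS -0.046, 0.05 and -0.106. These values cannot tell either whether the numbers pair samples. Depth limits what can be said of *Wnt3*, *Wnt4*, *Wnt5a* and *Wnt7b* where they stood at a few reads.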
